A study of Mus musculus with 4 samples.

Results

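Retinoic acid synthesis and receptor genes were followed in cultures of fibro-adipogenic progenitors, or FAPs. These are mesenchymal cells of skeletal muscle, carrying Sca1 on their surface, that can give rise to fat and scar tissue. The set held 8 genes of 28649 in the deposited sheet, taken by name: the retinaldehyde dehydrogenase genes Aldh1a1, Aldh1a2 and Aldh1a3, the carrier gene Crabp2, the receptor genes Rara, Rarb and Rarg, and the clearance gene Cyp26b1. RNA sequencing compared 2 libraries of miR-206 KO FAPs with 2 libraries of wild-type (WT) FAPs of C57Bl/6 mice. Both genotypes were FAPs sorted by FACS from muscle, grown to about 90% confluence in DMEM with 20% FBS, 10% horse serum and 5 ng/ml FGF, and then held for 48 hours in DMEM with 10% horse serum. The strain background of the KO mice, their age and their sex are not stated in the labels, so a strain difference and loss of the microRNA cannot be told apart. Nothing in the labels states whether the libraries of a genotype were made from different mice or dishes. The p-values then measure the spread between these 4 libraries alone, which may be technical.

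Retinoic acid is made from vitamin A inside the cell. Retinol is oxidised reversibly to retinaldehyde by retinol dehydrogenases, chiefly RDH10, and retinaldehyde is oxidised irreversibly to retinoic acid by the ALDH1A enzymes. CRABP proteins carry the product, RAR receptors paired with RXR bind it and switch on target genes, and CYP26 enzymes degrade it, so that Rarb and the CYP26 genes are both parts of the pathway and classical targets of it. Serum supplies retinol to cultured cells, and retinoic acid is known to restrain the conversion of progenitors into adipocytes.

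Each library held between 30550235 and 44561117 estimated counts. FAP markers were present in all libraries: Pdgfra had 480 and 478 TPM in KO and 360 and 382 TPM in WT, and Ly6a, which encodes Sca1, had 1379 and 1597 TPM in KO and 1908 and 2696 TPM in WT. Of the 15 FAP markers 1 was called by edgeR, lower in KO: Clec3b, with 38.5 and 41 TPM in KO and 102 and 102 TPM in WT (adjusted p = 0.00269). DESeq2 called 5 of the 15 higher and 3 lower. At an unadjusted edgeR p under 0.05, 5 of the 15 were higher and 4 lower. Both KO libraries lay above both WT libraries in 8 of the 15 and below them in 4. Transcripts of other lineages were present too. The 30 muscle-lineage markers of the sheet summed to 3411 TPM in KO replicate 1 and only 406 TPM in KO replicate 2, against 6834 and 3873 TPM in the WT libraries, and 22 of the 28 tested were below WT in both KO libraries, with 0 called by edgeR (0 at an unadjusted p under 0.05, and 1 by DESeq2). The 17 adipocyte markers summed to 920 and 638 TPM in KO and 2037 and 1383 TPM in WT. Of these, 16 of the 16 tested were below WT in both KO libraries. EdgeR called 1 lower, 8 were lower at an unadjusted edgeR p under 0.05, and DESeq2 called 9 lower. Of all tested genes, 24.4% had both KO libraries below both WT libraries and 23.8% had both above. At an unadjusted edgeR p under 0.05, 7.18% were lower and 7.16% higher. By adjusted p edgeR called 0.427% of all tested genes, 0.186% as lower. DESeq2 called 4.54% of all its genes, 2.21% as higher. KO replicate 2 stood apart in muscle transcripts, and both KO libraries were the lower pair in adipocyte transcripts. In RNA of whole cultures, fewer cells of a type and less RNA per cell cannot be told apart, and the part of these markers in the values below was not tested. Of 14 hematopoietic markers 4 (Adgre1, C1qa, C1qb and Tyrobp) were at 0 in every library, but the list summed to 8.61 to 14.3 TPM. Of 7 keratinocyte and epithelial markers 2 (Krt5 and Krt14) were at 0 in every library, and the list summed to 4.58 to 11.9 TPM. Endothelial markers summed to 26.1 to 31.4 TPM, glial markers to 8.25 to 15.7 TPM, and pericyte and smooth muscle markers to 645 to 719 TPM.

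Of the 8 genes, 5 had both KO libraries above both WT libraries: Aldh1a2, Crabp2, Rarb, Rarg and Cyp26b1. Aldh1a1 lay below WT in both KO libraries, and Aldh1a3 and Rara overlapped. With a KO library left out these 5 had to stay above both WT libraries, and 0 of the other 3 joined them, whichever KO library it was. Of all tested genes 38.3% lay above both WT libraries without KO replicate 1 and 37% without KO replicate 2. Over all 14507 tested genes, 23.8% had both KO libraries above both WT libraries, and 24.4% had both below. In the genotype test 0 of the 8 passed the threshold of an adjusted p of 0.05 (edgeR quasi-likelihood test with Benjamini-Hochberg adjustment over 14507 genes), where 0.427% of all tested genes did. At an unadjusted edgeR p under 0.05 stood 6 of the 8, where 14.3% of all tested genes did: 5 were higher, beside 7.16% of all tested genes, and 1 was lower, beside 7.18%. DESeq2 called 4 of the 8, Aldh1a2, Rarb, Rarg and Cyp26b1, all higher in KO, where it called 4.54% of 14529 genes, 2.21% as higher, and limma-voom called 0. The median log2 fold change of the 8 was 0.36, against -0.00 over all tested genes. The 8 genes were chosen with earlier results of these data known, so setting their shares beside those of all genes is no test.

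Levels per length, in TPM, set the genes in an order. In KO cells the mean TPM (± SD, n = 2) went down the order Aldh1a2 (475 ± 5.77), Rarg (98.3 ± 6.12), Crabp2 (59.4 ± 9.08), Rara (33.6 ± 3.71), Cyp26b1 (27.6 ± 2.07), Aldh1a1 (18.1 ± 1.67), Rarb (8.05 ± 0.081) and Aldh1a3 (1.43 ± 0.283), and no neighbours in that order overlapped. In WT cells Aldh1a1 (23.9 ± 5.06 TPM) stood before Cyp26b1 (21.3 ± 0.951 TPM) and the ranges of these neighbours overlapped, with the other genes in the same places and apart from one another. Aldh1a2 transcripts thus outnumbered those of each of the other 7 genes in every library.

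**Figure D1:**
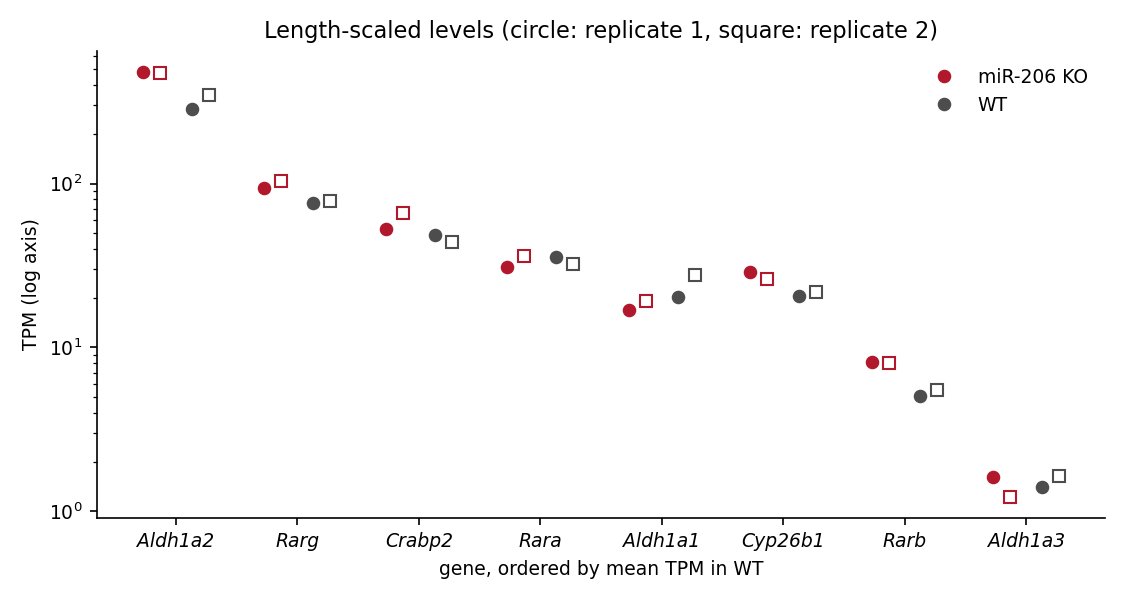
TPM of each of the 8 genes on a log axis, by library, with miR-206 KO left of WT in each pair of columns. Aldh1a2 stands highest at 471 to 479 TPM in KO and 283 to 346 TPM in WT, and Aldh1a3 lowest, under 2 TPM in every library.

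Aldh1a2 encodes RALDH2, the main retinoic acid-forming enzyme of embryonic mesoderm, and lies on the plus strand of chromosome 9, from 71215789 to 71296243 (GENCODE M21, GRCm38/mm10, as for all positions of genes here). It had 646 and 615 CPM in the KO libraries, against 377 and 456 CPM in the WT libraries. CPM are estimated counts over the TMM-adjusted library size, in units of 1e+06 counts. Both KO values were above both WT values, and the WT pair was the more widely spread. The KO mean of 631 ± 21.6 CPM against the WT mean of 417 ± 55.7 CPM (SD, n = 2 each) corresponded to a log2 fold change of 0.60 (SE 0.11), which missed the threshold (edgeR adjusted p = 0.0792; DESeq2 adjusted p = 2.0e-05). It was the smallest p among the 8 genes, at rank 209 of 14507. Without KO replicate 2 the log2 fold change was 0.64, and without KO replicate 1 it was 0.56.

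Aldh1a1 encodes RALDH1, a retinaldehyde dehydrogenase with known roles in liver, eye and fat, and lies on chromosome 19 from 20492715 to 20643465. It had 20.6 and 22.7 CPM in KO and 24.4 and 32.6 CPM in WT. The KO libraries were the lower pair, but WT replicate 1 lay nearer to them than to WT replicate 2. The log2 fold change was -0.40 (SE 0.16, edgeR adjusted p = 0.328), and without WT replicate 2 it was -0.17. Aldh1a3, the RALDH3 gene, lies on chromosome 7 from 66390890 to 66427517 and was barely present, with 68 and 51 estimated counts in KO and 85 and 77 in WT. Its levels of 1.97 and 1.67 CPM in KO and 2.38 and 1.72 CPM in WT overlapped (log2 fold change -0.17, SE 0.36).

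Within the 3 dehydrogenase genes, nearly all transcripts came from Aldh1a2. Its share of their summed TPM was 96.3% and 95.8% in KO and 92.9% and 92.2% in WT, while that of Aldh1a1 was 3.40% and 3.92% in KO and 6.67% and 7.33% in WT. The ratio of Aldh1a2 to Aldh1a1, in TPM, was 28.3 and 24.4 in KO and 13.9 and 12.6 in WT. The KO and WT ratios did not overlap, which follows from Aldh1a2 being the higher and Aldh1a1 the lower in both KO libraries. With 2 libraries against 2 an exact permutation test cannot give a two-sided p below 0.333. The summed TPM of the 3 genes was 495 ± 4.39 in KO and 340 ± 49.8 in WT (SD, n = 2 each).

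Aldh1a7, a rodent neighbour of Aldh1a1 on chromosome 19, resembles it so closely that some reads can fit both. Their coding sequences were identical at 91.9% of aligned bases, and 281 of the 31-base words in Aldh1a1 transcripts also occurred in Aldh1a7, 5.7% of the Aldh1a1 words. Other pairs within the ALDH1A and RAR families shared 0 such words. Aldh1a7 had 0.261 and 1.11 CPM in KO and 3.25 and 1.79 CPM in WT, and did not pass the test (log2 fold change -1.88, SE 0.73, edgeR adjusted p = 0.328). The value was -3.25 without KO replicate 2 and -1.17 without KO replicate 1. Its division of reads with Aldh1a1 is uncertain, but it held only 0.0432% and 0.192% of the summed TPM of these 4 dehydrogenase genes in KO and 0.879% and 0.4% in WT.

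**Figure D2:**
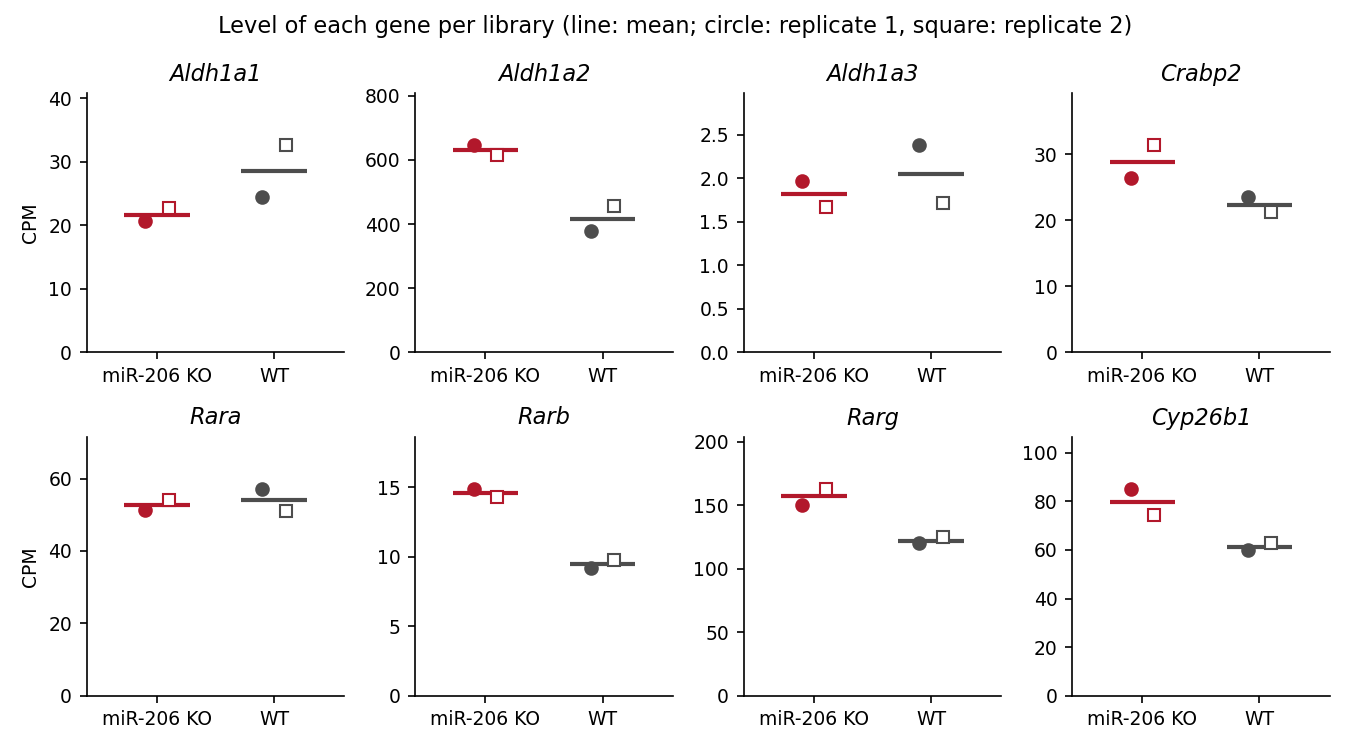
CPM of each gene in the 2 miR-206 KO and 2 WT libraries on linear axes that start at 0, with a line at each mean. Aldh1a2, Crabp2, Rarb, Rarg and Cyp26b1 have both KO points above both WT points, Aldh1a1 has both below, and the points of Aldh1a3 and Rara overlap.

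Crabp2 encodes the carrier that delivers retinoic acid to RAR in the nucleus, and lies on chromosome 3 from 87948666 to 87953376. It had 26.4 and 31.4 CPM in KO and 23.5 and 21.3 CPM in WT. The KO libraries were the higher pair, with KO replicate 1 close to WT replicate 1. The log2 fold change of 0.37 (SE 0.12) did not pass the test (edgeR adjusted p = 0.249), and it was 0.24 without KO replicate 2 and 0.49 without KO replicate 1. The other 2 tested carrier genes were lower in both KO libraries. Crabp1, whose product is linked to the breakdown of retinoic acid in the cytosol, had 81.8 and 126 CPM in KO and 209 and 161 CPM in WT (log2 fold change -0.83, SE 0.29, edgeR adjusted p = 0.367). Fabp5, which can pass retinoic acid to PPAR delta, had 23.6 and 32.1 CPM in KO and 46.1 and 39.1 CPM in WT (edgeR adjusted p = 0.232; DESeq2 adjusted p = 0.0351). By edgeR 0 of these 2 genes passed, with 1 lower at an unadjusted p under 0.05, beside 7.18% of all tested genes. DESeq2 called 1 lower, where it called 4.54% of all its genes in either direction. The ratio of Crabp1 to Crabp2, in TPM, was accordingly 3.71 and 4.81 in KO and 10.6 and 8.98 in WT. That the genotypes did not overlap in it follows from Crabp1 being the lower and Crabp2 the higher in both KO libraries.

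Among the receptors, Rarg led in every library. RARs are nuclear receptors that sit on target genes together with RXR, and Rarg is the form best known in cartilage and skin. Rarg lies on chromosome 15 from 102234938 to 102257517 and had 150 and 163 CPM in KO and 120 and 125 CPM in WT. All KO values exceeded all WT values, by more than the spread of either pair. The log2 fold change was 0.36 (SE 0.07), short of the threshold (edgeR adjusted p = 0.109; DESeq2 adjusted p = 0.00847). Rara, the most widely expressed form, lies on chromosome 11 from 98927818 to 98974942 and had 51.3 and 54.0 CPM in KO and 57.2 and 51.1 CPM in WT. Its genotypes overlapped, with a log2 fold change of -0.04 (SE 0.08).

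Rarb lies on chromosome 14 from 16430839 to 16819156 on the minus strand. It was the lowest of the 3 receptor genes in every library. The KO libraries held 14.9 and 14.3 CPM, from 515 and 436 estimated counts, and the WT libraries held 9.17 and 9.80 CPM, from 327 and 438. The libraries of each genotype lay close together, and the genotypes were well apart. The means of 14.6 ± 0.449 CPM in KO and 9.49 ± 0.446 CPM in WT (SD, n = 2 each) gave a log2 fold change of 0.62 (SE 0.13), which did not pass the test (edgeR adjusted p = 0.111; DESeq2 adjusted p = 0.0323). It was between 0.57 and 0.67 with any 1 library left out. Exons of Rarb and of Top2b, which is transcribed from the other strand, overlap, and the use of strand in counting is not given in the sources used here. Rarb reads could therefore not be told apart from those of Top2b in the overlap unless strand was used. Top2b had 4571 and 4302 estimated counts in KO and 4409 and 5997 in WT, and its part in the Rarb counts was not tested.

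Rarg made up 70.6% and 69.9% of the summed TPM of the 3 receptors in KO and 65.2% and 67.3% in WT. Rarb made up 6.09% and 5.44% in KO and 4.32% and 4.72% in WT, and Rara 23.3% and 24.7% in KO and 30.5% and 28% in WT. None of these shares overlapped between the genotypes. Shares of a sum are tied to one another, though, and Rara itself overlapped in TPM. By CPM, 23.8% of all tested genes had both KO libraries above both WT libraries, and 24.4% had both below. The summed TPM was 140 ± 9.75 in KO and 116 ± 0.809 in WT (SD, n = 2 each).

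Rarb is shown with its promoter because the gene is a classical direct target of the receptors it belongs to. RAR and RXR bind pairs of a 6-base unit repeated in the same direction, and the unit was searched in 4 spellings, namely AGGTCA or else GGGTCA or else AGTTCA or else GGTTCA, with a spacer of 1, 2 or 5 bases (DR1, DR2 and DR5), on both strands. The RefSeq promoter windows (GRCm38.p6) run from 250 bases before the transcription start to 50 after it. The table held 11 windows for 6 of the 8 genes. Only the Rarb window held a pair, a DR5 that spans the bases from 53 to 37 before the start. It is set in capitals in the window at chr14:16575427-16575726, read on the minus strand:
Rarb promoter: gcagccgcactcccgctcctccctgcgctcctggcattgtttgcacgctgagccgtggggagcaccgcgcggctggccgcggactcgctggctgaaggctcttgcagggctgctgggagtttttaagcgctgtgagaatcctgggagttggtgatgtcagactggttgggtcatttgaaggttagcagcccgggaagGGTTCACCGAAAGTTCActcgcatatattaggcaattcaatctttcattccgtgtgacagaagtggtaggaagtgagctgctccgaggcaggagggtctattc
A DR5 pair occurred in 32 of all 32851 promoter windows (0.0974%), a DR1 pair in 0.222% and a DR2 pair in 0.268%. Rarb was shown because it is a known target, so setting its pair beside the share of all windows is no test. The match describes these letters, and no match in the other windows says only that the pair is not within them.

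Cyp26b1 encodes a cytochrome P450 that turns retinoic acid into inactive polar forms, and lies on chromosome 6 from 84571414 to 84593908 on the minus strand. It had 85.2 and 74.5 CPM in KO and 59.8 and 62.8 CPM in WT. The KO pair was the higher and the more widely spread. The log2 fold change of 0.38 (SE 0.09) did not pass the test (edgeR adjusted p = 0.133; DESeq2 adjusted p = 0.0367), and was 0.48 without KO replicate 2 and 0.28 without KO replicate 1. The ratio of Aldh1a2 to Cyp26b1, in TPM, was 16.5 and 18.0 in KO and 13.8 and 15.8 in WT. The KO ratios lay above the WT ratios, and the gap from 16.5 to 15.8 was narrower than the spread within either genotype. The other CYP26 genes, Cyp26a1 and Cyp26c1, did not pass the filter on low counts.

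Since the cells lacked miR-206, the 3' UTRs of the 8 genes were searched for its seed match. The seed, bases 2 to 8 of the mature microRNA, is in capitals in the RefSeq sequence:
mmu-miR-206-3p: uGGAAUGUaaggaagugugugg
The longest annotated 3' UTR of each gene (GENCODE M21) was searched for ACATTCCA, ACATTCC or CATTCCA. Sites were found in 2 of the 8 genes, Rarb and Cyp26b1, with 1 each, where 16.9% of 21020 genes with a 3' UTR held at least 1. Both are pairings to bases 2 to 8, shown in capitals with the bases around them:
Rarb site at chr14:16432037-16432065, minus strand: ttccagctgttgcagACATTCCccaggac
Cyp26b1 site at chr6:84571959-84571987, minus strand: gggtgatgtagtctcACATTCCtaactat
The Rarb site starts at base 21 of a 3' UTR of 1232 bases, and the Cyp26b1 site at base 2295 of one of 2853 bases. Both genes had both KO libraries above both WT libraries, as did Aldh1a2, Crabp2 and Rarg, which held no site. A seed match describes the sequence and does not show regulation.

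The wider pathway was read from 5 lists of other retinoid genes, 88 in all, of which 67 were tested. By edgeR, 1 of them was called higher in KO and 0 lower, where 0.241% of all tested genes were called higher and 0.186% lower. Both KO libraries lay above both WT libraries in 23 of the 67 and below them in 11, beside the 23.8% and 24.4% of all tested genes. The median log2 fold change of the 67 was 0.09. These lists too were chosen with earlier results of these data known.

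Upstream of the dehydrogenases, 0 of 6 tested genes of retinol uptake, storage and carriage passed the test by edgeR, 0 had an unadjusted p under 0.05 and DESeq2 called 0. Rbp4, which encodes the secreted retinol carrier, had 28.4 and 18.5 CPM in KO and 18.8 and 16.6 CPM in WT, and KO replicate 1 alone stood high. Retsat, a retinol saturase gene, differed little, with 20.9 ± 0.729 CPM in KO and 21.6 ± 2.56 CPM in WT (SD, n = 2 each).

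Of 21 tested genes of retinol and retinaldehyde redox enzymes, 0 passed by edgeR. At an unadjusted edgeR p under 0.05, 3 were higher and 4 lower, beside 7.16% and 7.18% of all tested genes. DESeq2 called 1 higher and 2 lower, where it called 4.54% of all its genes, 2.21% as higher. Rdh10, the gene of the enzyme that feeds retinaldehyde to the ALDH1A step, had 41.1 and 50.2 CPM in KO and 14.8 and 20.2 CPM in WT. The KO values were all above the WT values, and the log2 fold change of 1.38 (SE 0.19) did not pass the threshold (edgeR adjusted p = 0.0724; DESeq2 adjusted p = 2.7e-09). Without KO replicate 1 or KO replicate 2 the log2 fold change was 1.52 or 1.23. Without WT replicate 1 or WT replicate 2 it was 1.17 or 1.63. Rdh10 passed with no filter on low counts (edgeR adjusted p = 0.0439) and with the replicate number as a block (edgeR adjusted p = 0.0104). It did not pass without robust estimation (edgeR adjusted p = 0.0974) or with limma-voom (adjusted p = 0.0753). Nor did it pass with limma on log2(TPM + 1) and log2(TPM + 0.1) (adjusted p of 0.22 and 0.217). Dhrs3, a retinaldehyde reductase that acts against RDH10 and is itself induced by retinoic acid, had 322 and 394 CPM in KO and 208 and 316 CPM in WT. KO replicate 1 and WT replicate 2 were nearly equal in it. The ratio of Dhrs3 to Rdh10, in TPM, was 21.4 and 21.3 in KO and 38.5 and 42.8 in WT. Adh1, a retinol-oxidising alcohol dehydrogenase gene, had 42.2 and 39.3 CPM in KO and 55.4 and 52.6 CPM in WT (log2 fold change -0.41, SE 0.08, edgeR adjusted p = 0.0884; DESeq2 adjusted p = 0.0193). Akr1b10 had 12.9 and 14.8 CPM in KO and 21.1 and 19.5 CPM in WT (edgeR adjusted p = 0.132; DESeq2 adjusted p = 0.0466), and Adh5 had a log2 fold change of -0.03.

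The 19 partner receptors and co-regulators had log2 fold changes with quartiles of -0.04 and 0.12, and 0 passed by edgeR or DESeq2. At an unadjusted edgeR p under 0.05, 1 was higher and 1 lower, beside 7.16% and 7.18% of all tested genes. Rxra, the main RXR partner of the RARs, had 119 and 116 CPM in KO and 138 and 133 CPM in WT (log2 fold change -0.21, SE 0.07, edgeR adjusted p = 0.245). The KO libraries were the lower pair by a small margin. Rxrb and Rxrg overlapped between the genotypes, and Rxrg was low, at 2.72 and 2.19 CPM in KO and 3.11 and 2.06 CPM in WT. Ppard, the receptor gene served by FABP5, had 64.9 and 66.0 CPM in KO and 59.3 and 56.5 CPM in WT (edgeR adjusted p = 0.319). The co-repressor gene Ncor1 and the deacetylase gene Hdac3 had log2 fold changes of -0.11 and -0.05.

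Of 19 tested retinoic acid target genes, edgeR called 1 higher and 0 lower. A positive log2 fold change was found in 15, as in 7189 of all 14507 tested genes. At an unadjusted edgeR p under 0.05, 5 were higher and 2 lower, beside 7.16% and 7.18% of all tested genes. DESeq2 called 2 higher and 2 lower, where it called 4.54% of all its genes, 2.21% as higher. The gene that edgeR called was Tgm2, tissue transglutaminase, a crosslinking enzyme long used as a readout of retinoic acid. It had 251 and 245 CPM in KO and 136 and 129 CPM in WT. The genotypes were far apart beside the spread of 3.97 CPM in KO and 5.30 CPM in WT (SD, n = 2 each), and the log2 fold change was 0.90 (SE 0.07, edgeR adjusted p = 0.0116). Leaving out KO replicate 1, KO replicate 2 or WT replicate 2 in turn ended the call (edgeR adjusted p of 0.0899, 0.0822 and 0.0514), with log2 fold changes of 0.89, 0.92 and 0.86. Exons of Tgm2 overlap Rprd1b on the other strand, so the doubt about strand applies to it too. Rprd1b had 1622 and 1405 estimated counts in KO and 1306 and 1683 in WT. Those of Tgm2 were 8664 and 7490 in KO and 4865 and 5762 in WT. The part of Rprd1b reads in the Tgm2 counts was not tested. Tgm2 is also a target of other signals, among them TGF-beta.

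Among the other named targets, Hoxb3, a patterning gene, had 6.54 and 6.81 CPM in KO and 3.14 and 2.95 CPM in WT, a log2 fold change of 1.13 (SE 0.20, edgeR adjusted p = 0.0792; DESeq2 adjusted p = 0.0039). Cdkn1a, the p21 gene, had 196 and 182 CPM in KO and 336 and 273 CPM in WT (log2 fold change -0.69, SE 0.11, edgeR adjusted p = 0.0745; DESeq2 adjusted p = 5.9e-06), and it answers to p53 as well. Rarres2, the chemerin gene, had 67.2 and 27.9 CPM in KO and 26.6 and 30.2 CPM in WT, so that KO replicate 1 alone was high.

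**Figure D3:**
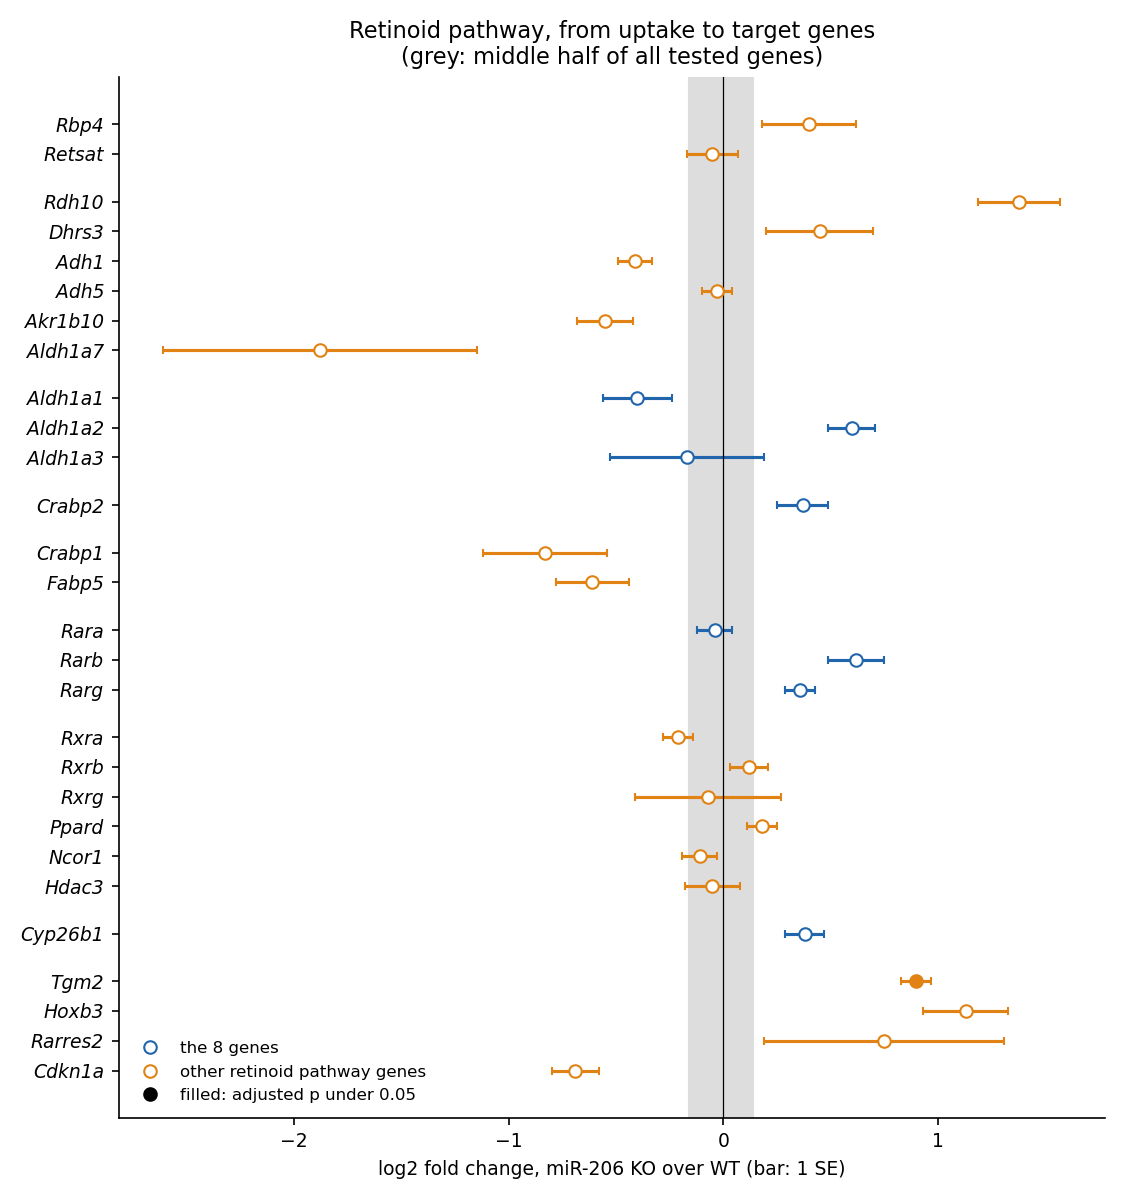
Log2 fold change of KO over WT with 1 SE for the 8 genes and other named genes of the 5 lists, from retinol uptake at the top to target genes at the bottom. The grey band, -0.16 to 0.14, holds the middle of all tested genes, and Tgm2 is the one filled point, past the threshold.

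With any 1 library left out, the log2 fold change stayed positive for Aldh1a2 (0.47 to 0.74), Crabp2 (0.24 to 0.49), Rarb (0.57 to 0.67), Rarg (0.30 to 0.42) and Cyp26b1 (0.28 to 0.48). It stayed negative for Aldh1a1 (-0.59 to -0.17). The KO and WT values of these genes did not overlap, so leaving out a library could not change these signs, apart from rescaling. Only the sizes carry information. Aldh1a3 and Rara ran through 0, from -0.39 to 0.08 and from -0.12 to 0.04. Such fits keep 1 library in a genotype, which is assumed to vary like the other genotype.

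**Figure D4:**
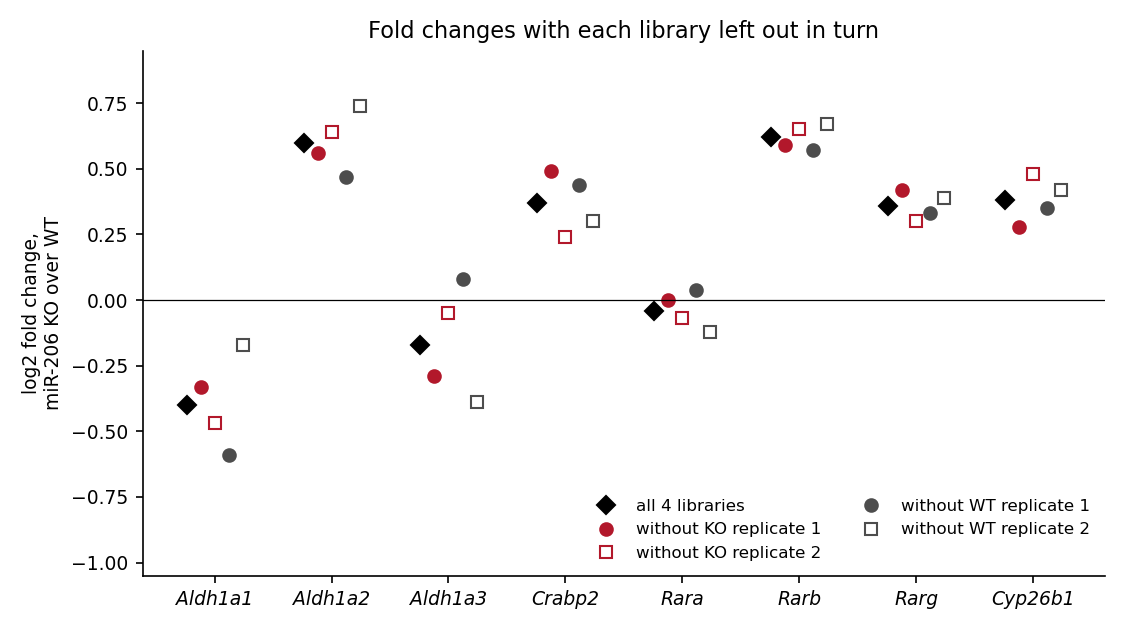
Log2 fold change of KO over WT for each of the 8 genes with all 4 libraries (diamonds) and with each library left out in turn. The points of Aldh1a2, Crabp2, Rarb, Rarg and Cyp26b1 stay above 0, those of Aldh1a1 below 0, and those of Aldh1a3 and Rara lie on both sides. Where the KO and WT values do not overlap, the side of 0 is fixed, apart from rescaling.

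The genes most like Aldh1a2 in their course over the 4 libraries were sought among 10907 tested genes of at least 5 mean CPM, by the distance of log2 CPM after centring and scaling. The nearest were Mios (distance 0.0282), Cyp4v3 (0.0316) and Fmo5 (0.05), and 17 genes lay within 0.1. Mios had 38.6 and 37.5 CPM in KO and 26.4 and 30.1 CPM in WT. Over so few libraries many genes share a course, and the measure describes these libraries only. None of the 3 passed the genotype test (edgeR adjusted p of 0.123, 0.234 and 0.271).

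The authors' deposited table of log2 differences of mean TPM, KO over WT, gave 0.62 for Rarb, 0.59 for Aldh1a2, 0.38 for Cyp26b1, 0.36 for Crabp2 and 0.35 for Rarg. In the authors' deposited table Rara stood at -0.02, Aldh1a3 at -0.09 and Aldh1a1 at -0.40, the same signs as in the count test. Both rest on the same 4 libraries, so the like signs are no separate check.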

How the data were processed

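The authors deposited estimated counts for 28649 genes, and the submitters' processing notes name kallisto and build mm10. Libraries came from a stranded mRNA kit per the labels. For versions, annotation release and use of strand, the sources used here give nothing. TPM, and log2 differences of mean TPM in a further sheet of 12078 genes, were also deposited by the authors. Members and lists were chosen with earlier results of these data known.

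After rounding, the counts were fitted in edgeR 4.0.16 under R 4.3.3 (quasi-likelihood, robust, TMM, filterByExpr, Benjamini-Hochberg adjustment over 14507 genes, two-sided). All 8 genes passed the low-count filter. SE is the size of the log2 fold change over the square root of F. DESeq2 1.42.0, limma-voom 3.58.1, other scalings and filters, and limma on log2(TPM + 1) and log2(TPM + 0.1) were alternatives. The fit was also run on simulated counts. There a larger share of its calls was false than the threshold aims at, and most small changes were not called. Named pathway genes were those called, the 3 of highest mean TPM and up to 3 of smallest p under 0.05 per list, Aldh1a7 and the RXR genes. Some genes that this rule names are not reported here. Replicates differed beyond sampling noise (chi-square per gene 38.3 in KO and 28.7 in WT). Mir206 was not analysed here, so the deleted gene gave no check on the labels.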

Additional observations from a re-analysis of the deposited data

How the results depend on the processing

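The count of genes called, 62, of which 35 were higher in KO, moved with the test: 133 (62 higher) with library size alone, 491 (273) with no low-count filter, 660 (321) with DESeq2, 14 (11) with limma-voom, 11 (9) without robust estimation, 7 (5) with limma on log2(TPM + 1) and 6 (4) with limma on log2(TPM + 0.1), and from 7 to 77 (6 to 27) with a library left out. Of the 8 genes 0 were called in the main test and 4 with no low-count filter or DESeq2: Aldh1a2 (log2 fold change 0.60 in both, adjusted p of 0.00504 and 2.0e-05), Rarb (0.62, 0.0466 and 0.0323), Rarg (0.36, 0.0305 and 0.00847) and Cyp26b1 (0.38, 0.0305 and 0.0367). No member was called under the other alternatives. Of all tested genes the main test called 0.427%, and DESeq2 called 4.54% of its genes. The share behind the 491 genes called with no low-count filter is not given here. Without WT replicate 1 the log2 fold change of Aldh1a3 was 0.08 and that of Rara 0.04; left-out ranges were -0.39 to 0.08 and -0.12 to 0.04.

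The main test called 0.241% of all tested genes higher and 0.186% lower. DESeq2 called 4.54% of all its genes, 2.21% as higher. Of the other retinoid genes, 1 was called higher and 0 lower in the main test. With no low-count filter 4 and 3 were, with DESeq2 3 and 5, and with limma on log2(TPM + 1) and log2(TPM + 0.1) 0 were called higher; with a library left out, 0 to 1. Without WT replicate 2 the 1 called was Rdh10 (adjusted p = 0.0437) in place of Tgm2 (0.0514). Tgm2 was not called on log2(TPM + 1) or log2(TPM + 0.1) (0.87 and 0.88 log2). Signs changed with a library left out for Retsat (-0.16 to 0.08), Rxrg (-0.34 to 0.25), Hdac3 (-0.18 to 0.09) and Rarres2 (-0.03 to 1.24), and for Rxrg on log2(TPM + 1) and log2(TPM + 0.1) (0.06 and 0.08). The cause was not tested. The count of 5 genes with KO above WT cannot fall when a KO library is left out, an alternative chosen after seeing the data, and says nothing about stability.

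The labels number the libraries 1 and 2 in both genotypes, and deviations of same-numbered libraries correlated at 0.187 over 14507 genes, across genes, but only the number ties them. With the replicate number as a block 265 genes were called (126 higher), 0 of the 8, and 2 other retinoid genes higher and 2 lower, among them Rdh10 (higher, adjusted p = 0.0104), Tgm2 (higher, 0.0131) and Cdkn1a (lower, 0.0297). The depth behind Aldh1a3, 51 to 85 estimated counts, limits what it can show.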
